A study of Rattus norvegicus with 18 samples.

Results

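The messenger RNA levels of 9 transcription factor genes of inflammatory and myeloid cells, Nfkb1, Nfkb2, Rela, Relb, Cebpb, Cebpd, Spi1, Irf5 and Irf8, were followed across 18 RNA-sequencing libraries of rat dorsal root ganglion. The genes were chosen by name and are 9 of the 25678 genes in the deposited count table. Each had 1 row in the table, and all 9 passed the filter on low counts that left 17043 genes for testing. The study asked how Shentong Zhuyu decoction, a traditional preparation of many ingredients, acts on a rat model of neuropathic pain, and looked for transcription factors that might carry its effect. The libraries fell into 6 groups of 3, named here as in the labels. NPP_herb and NPP_solvent ganglia came from rats in the state labelled NPP, treated with herb or with solvent. Sham_herb and Sham_solvent ganglia came from rats in the Sham state with the same treatments. Ctrl_solvent ganglia came from control rats given solvent, and Ctrl ganglia from control rats for which the labels name no agent. The sources used here do not give the strain, age or sex of the rats, how the model was made, or dose and timing. Nor do the labels say whether replicates were separate animals, and p-values therefore measure the spread between libraries, part of which may be technical.

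NF-kB is a family of paired DNA-binding proteins that wait in the cytoplasm, bound to inhibitors of the IkB family, until receptors for tumour necrosis factor, interleukin-1 or microbial products switch on the IkB kinases. Rela and Nfkb1 encode the pair of the canonical arm, while Relb and Nfkb2 encode the pair of the alternative arm, which answers to lymphotoxin beta receptor, CD40 and BAFF receptor. C/EBP beta and C/EBP delta are acute-phase factors that act beside NF-kB on cytokine and acute-phase genes. PU.1, the product of Spi1, is the factor that macrophages, neutrophils and B cells need to form, IRF8 joins it on the DNA of macrophages and dendritic cells and is itself induced by interferon-gamma, and IRF5 links Toll-like receptors to inflammatory cytokines. In a sensory ganglion the NF-kB and C/EBP genes can be expressed by neurons, glia and vessels as well as by immune cells, whereas Spi1 and Irf8 are known mainly from blood-derived cells. In bulk tissue, fewer cells of a type and less RNA per cell cannot be told apart.

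The libraries held 18170925 to 50289652 reads counted on genes. Markers of neurons (7 genes), satellite glia (4), Schwann cells (6) and macrophages (18) were all above 0 in every group. So were those of endothelial cells and fibroblasts, and detection alone therefore does not identify the tissue named in the labels. Ctrl_solvent replicates 1 and 3 stood apart from the other libraries. Their 18 summed macrophage markers reached 757 and 713 CPM (read counts brought to a common library size, scaled by TMM), against 213 CPM in Ctrl_solvent replicate 2 and 112 to 376 CPM in the other 15 libraries. Their summed T, B and NK cell markers reached 68.4 and 74.5 CPM, against 30.9 CPM in Ctrl_solvent replicate 2 and 15.0 to 29.3 CPM elsewhere. Among the controls, Y-linked genes summed to 1.55 and 4.83 CPM in Ctrl replicates 2 and 3, whereas the other 16 libraries had 128 to 173 CPM. Each result that rests on the Ctrl_solvent or Ctrl group is therefore given beside these libraries.

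On the length-corrected scale of the deposited FPKM (read numbers corrected for the length of the gene and the depth of the library), the 9 factors differed widely in level. Averaged over the 18 libraries, Cebpd had the highest level at 11.7 FPKM and Rela the next at 8.94 FPKM. Nfkb1 followed at 5.31 FPKM and Cebpb at 3.21 FPKM, and the alternative-arm pair came lower, Relb at 2.23 FPKM and Nfkb2 at 1.72 FPKM. The 3 myeloid factors were the lowest, with 1.15 FPKM for Irf5, 0.991 FPKM for Irf8 and 0.864 FPKM for Spi1. Read numbers were ample even for the scarcest, from 53 to 247 reads per library for Spi1 and from 43 to 484 reads for Irf8. The factors also differed in how much they varied. Across libraries the coefficient of variation of CPM was 13.3% for Nfkb1 and 14.5% for Rela, 22.0% for Relb and 25.8% for Nfkb2, 38.9% for Cebpb and 45.6% for Cebpd. It was 36.4% for Irf5, 63.1% for Spi1 and 98.3% for Irf8, whose highest library was 15.4 times its lowest, against 1.70 times for Rela.

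**Figure D1:**
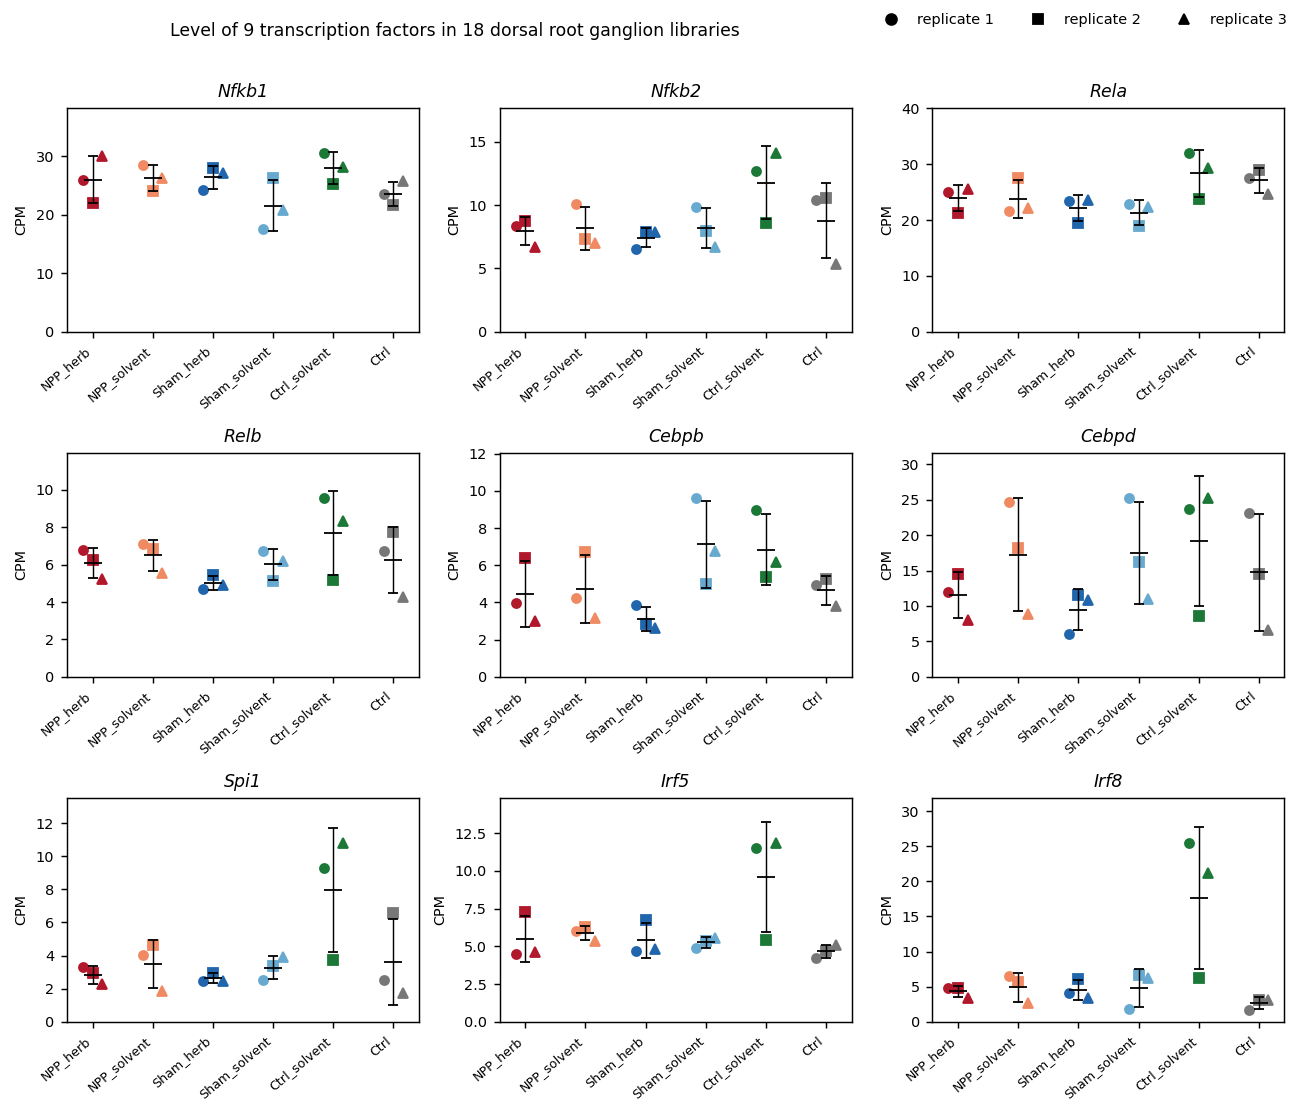
Level of each of the 9 factors in every library, in CPM scaled by TMM, on axes that start at 0. Circles, squares and triangles are replicates 1, 2 and 3, horizontal lines are group means and bars are 1 SD (n = 3). Ctrl_solvent replicates 1 and 3 lie above all other libraries in Spi1, Irf5 and Irf8, with Ctrl_solvent replicate 2 among the rest, while Rela and Nfkb1 stay within a narrow band.

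Ranked by their group means, all 9 factors except Cebpb were highest in Ctrl_solvent ganglia. Cebpb was highest in Sham_solvent ganglia. No 2 neighbouring groups in any of these rankings were separated without overlap, with 1 exception at the foot of the Irf8 ranking, where every NPP_herb library lay above every Ctrl library. The rankings were made for the 9 factors alone, so this count has no background over all genes. NPP_herb was not tested against Ctrl. In the test for any difference among the 6 groups, 0 of the 9 factors and 0 of the 17043 genes tested (0%) had an adjusted p under 0.05 with edgeR's quasi-likelihood test and Benjamini-Hochberg adjustment. At an unadjusted p under 0.05 this test picked 4 of the 9, Irf8, Irf5, Spi1 and Cebpb, beside 10.2% of all genes tested, and their edgeR adjusted p was 0.236 for Irf8, 0.377 for Irf5, 0.407 for Spi1 and 0.418 for Cebpb. The likelihood ratio test of DESeq2 called Irf8 alone of the 9 (adjusted p = 1.1e-05), beside 2.76% of all genes.

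**Figure D2:**
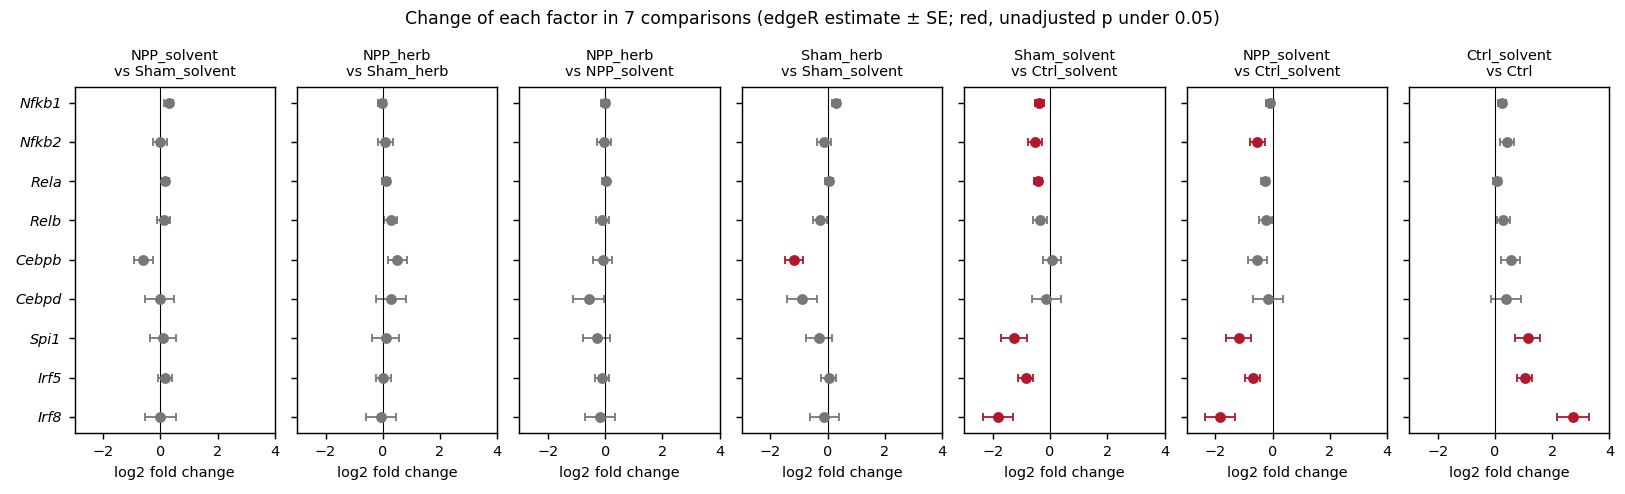
Log2 fold change of each factor in 7 comparisons, as estimated by edgeR, with bars of 1 SE, and the group named on top of each panel over the group named below it. Red marks an unadjusted p under 0.05. The 3 comparisons that involve Ctrl_solvent share its 3 libraries and hold all red points but 1, which is Cebpb in Sham_herb over Sham_solvent.

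Irf8, the macrophage and dendritic cell factor, varied most. Its level was 4.78, 4.85 and 3.45 CPM in NPP_herb replicates 1, 2 and 3 and 6.47, 5.69 and 2.61 CPM in the NPP_solvent replicates. It was 4.08, 6.11 and 3.43 CPM in Sham_herb and 1.75, 6.60 and 6.21 CPM in Sham_solvent ganglia. In Ctrl_solvent ganglia it stood at 25.5, 6.17 and 21.2 CPM, against 1.66, 3.10 and 3.13 CPM in Ctrl ganglia. Ctrl_solvent replicates 1 and 3 were thus far above every other library, and Ctrl_solvent replicate 2 lay within the range of the NPP and Sham libraries, though above all 3 Ctrl libraries. Irf5, the Toll-like receptor factor, showed the same libraries on top. Its level was 4.51, 7.25 and 4.65 CPM in NPP_herb, 6.02, 6.28 and 5.36 CPM in NPP_solvent, 4.68, 6.75 and 4.81 CPM in Sham_herb and 4.88, 5.38 and 5.54 CPM in Sham_solvent ganglia. It was 11.5, 5.41 and 11.9 CPM in Ctrl_solvent ganglia and 4.24, 4.66 and 5.09 CPM in Ctrl ganglia, so that the lowest Ctrl_solvent library was just above the highest Ctrl library. Spi1, which encodes PU.1, had 3.28, 2.95 and 2.25 CPM in NPP_herb, 4.0, 4.61 and 1.85 CPM in NPP_solvent, 2.46, 2.96 and 2.49 CPM in Sham_herb and 2.52, 3.38 and 3.88 CPM in Sham_solvent ganglia. It had 9.31, 3.73 and 10.8 CPM in Ctrl_solvent ganglia against 2.54, 6.60 and 1.76 CPM in Ctrl ganglia, where replicate 2 overlapped the Ctrl_solvent range.

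Solvent was set against no named agent by comparing Ctrl_solvent with Ctrl ganglia. All 9 factors had positive log2 fold changes (51.1% of all genes), from 0.06 to 2.74 with a median of 0.42, beside a median of 0.01 over all genes tested. None of the 9 had an adjusted p under 0.05 by edgeR's quasi-likelihood test with Benjamini-Hochberg adjustment, as was so for every gene tested (0%). Unadjusted p under 0.05 was reached by 3 of the 9, all higher in Ctrl_solvent, beside 8.33% of all genes in that direction and 13.0% in both. Irf8 averaged 17.6 ± 10.1 CPM in Ctrl_solvent and 2.63 ± 0.844 CPM in Ctrl ganglia (SD, n = 3 each), a log2 fold change of 2.74 ± 0.55 (SE) with an edgeR adjusted p of 0.122. For Irf5 the means were 9.60 ± 3.63 CPM in Ctrl_solvent and 4.66 ± 0.429 CPM in Ctrl ganglia, with a log2 fold change of 1.03 ± 0.26 and an edgeR adjusted p of 0.135. Spi1 averaged 7.95 ± 3.73 CPM in Ctrl_solvent and 3.63 ± 2.60 CPM in Ctrl ganglia, with a log2 fold change of 1.14 ± 0.45 and an edgeR adjusted p of 0.294. The groups did not overlap for Irf8, Irf5 and Cebpb, all higher in Ctrl_solvent, beside 8.45% of all genes. DESeq2 called 2 of the 9, Irf8 (adjusted p = 4.04e-05) and Irf5 (adjusted p = 0.0124), beside 2.73% of all genes.

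Which libraries are kept decides these calls. Without Ctrl_solvent replicate 2, edgeR called Irf8 at a log2 fold change of 3.15 (adjusted p = 0.00234) and Irf5 at 1.32 (adjusted p = 0.00271). With that replicate as the lone Ctrl_solvent library, an alternative added after the data were seen that assumes it varies as the other groups do, 5 of the 9 log2 fold changes stayed positive, with no call. These were 1.23 for Irf8, 0.21 for Irf5, 0.20 for Cebpb, 0.092 for Nfkb1 and 0.053 for Spi1. The other 4 turned negative, at -0.78 for Cebpd, -0.27 for Relb, -0.20 for Rela and -0.037 for Nfkb2. Leaving out Ctrl replicate 2 put Spi1 at 1.88. Ctrl replicate 1, the Ctrl library whose Y-linked sum was like those of the Ctrl_solvent libraries, had the lowest Irf8 and Irf5 of all 18 libraries. The part of the Y-linked difference in the comparison was not tested.

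Macrophage markers were high in the same libraries as these 3 factors. Of the 18 macrophage markers, 16 were higher in Ctrl_solvent than in Ctrl ganglia, 15 of them at an unadjusted p under 0.05 (8.33% of all genes in that direction), with a median log2 fold change of 1.70. Their sum was 757, 213 and 713 CPM in Ctrl_solvent ganglia and 151, 214 and 112 CPM in Ctrl ganglia, so that Ctrl_solvent replicate 2 was no higher than Ctrl replicate 2. T, B and NK cell markers were higher in 8 of the 8 tested, at a median of 2.94, and 14 of 14 interferon-stimulated genes were higher at a median of 3.27. Neutrophil markers ran the other way, lower in 9 of the 10 tested (1 at an unadjusted p under 0.05) at a median of -1.16. The 12 neutrophil markers in the table summed to 159, 69.5 and 46.9 CPM in Ctrl_solvent ganglia and 83.2, 387 and 46.5 CPM in Ctrl ganglia, and Ctrl replicate 2, with the highest sum of all libraries, was also the Ctrl library with 6.60 CPM of Spi1. Red blood cell markers were lower in 8 of 8 at a median of -0.38, none at an unadjusted p under 0.05. The part of these cells in the result was not tested. As a share of the summed macrophage markers, Irf8 was 3.37%, 2.90% and 2.97% in Ctrl_solvent ganglia and 1.10%, 1.45% and 2.80% in Ctrl ganglia. The groups did not overlap, but only 2.80% against 2.90% kept them apart. Sham_herb replicate 1, at 3.24%, lay inside the Ctrl_solvent range. The share was computed for these 3 factors alone, so it has no background over all genes, and it was not tested. The same share overlapped between the groups for Spi1, at 1.23%, 1.76% and 1.52% in Ctrl_solvent and 1.69%, 3.08% and 1.58% in Ctrl ganglia. It overlapped for Irf5 as well, at 1.52%, 2.55% and 1.66% in Ctrl_solvent and 2.81%, 2.17% and 4.55% in Ctrl ganglia.

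**Figure D3:**
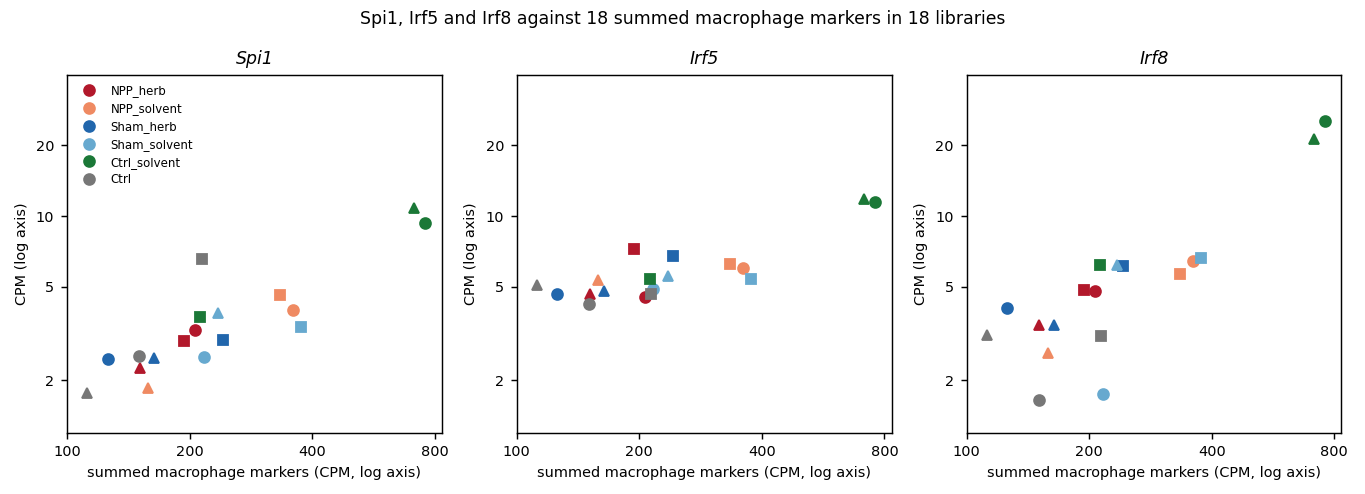
Level of Spi1, Irf5 and Irf8 (CPM, log axis) against the sum of 18 macrophage markers (CPM, log axis) in 18 libraries, coloured by group. Circles, squares and triangles are replicates 1, 2 and 3. Ctrl_solvent replicates 1 and 3 lie at the upper right in each panel, with 757 and 713 CPM of macrophage markers, and no library lies between them and the rest, which end at 376 CPM.

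Genes linked to PU.1 and IRF8 in macrophages, such as Fc receptors and NADPH oxidase subunits, were high in the same libraries too. All 20 on the list were higher in Ctrl_solvent than in Ctrl ganglia, 18 of them at an unadjusted p under 0.05, with a median log2 fold change of 1.74. Over all genes tested, 51.1% were higher and 8.33% were higher at an unadjusted p under 0.05, which is the background for each list in this comparison. The list shares 5 genes with the macrophage markers. Fcgr2b, the inhibitory Fc receptor, had 11.8, 2.46 and 14.0 CPM in Ctrl_solvent ganglia against 1.11, 1.84 and 1.04 CPM in Ctrl ganglia, a log2 fold change of 2.83 ± 0.54 (edgeR adjusted p = 0.122). Upstream, all 10 tested receptors that feed NF-kB were higher, 6 at an unadjusted p under 0.05. Tlr7, the receptor for single-stranded RNA that signals through IRF5, had 9.20, 3.38 and 9.36 CPM in Ctrl_solvent ganglia against 1.84, 1.5 and 1.44 CPM in Ctrl ganglia, a log2 fold change of 2.19 ± 0.43 (edgeR adjusted p = 0.122). Downstream, 15 of 18 tested NF-kB target genes were higher, 13 at an unadjusted p under 0.05, with a median log2 fold change of 1.34. The target list summed to 653, 262 and 634 CPM in Ctrl_solvent and 240, 299 and 262 CPM in Ctrl ganglia, with Ctrl_solvent replicate 2 inside the Ctrl range. Of the lists in this pathway, 2 had medians near 0. Among the adaptors and kinases between receptor and NF-kB 13 of 19 were higher, 4 of them at an unadjusted p under 0.05, with a median of 0.11. Among the other NF-kB subunit gene Rel and the inhibitors 5 of 7 were higher, 1 of them at an unadjusted p under 0.05, with a median of 0.12. Traf2, an adaptor of tumour necrosis factor receptors, was the lower member picked by the rule for named genes, at 14.0 ± 0.849 CPM in Ctrl_solvent and 16.7 ± 0.213 CPM in Ctrl ganglia (SD, n = 3 each; log2 fold change -0.25 ± 0.11, edgeR adjusted p = 0.362). Irf3, which answers to cytosolic nucleic acids, was the other, at 35.5 ± 2.63 CPM in Ctrl_solvent and 43.2 ± 5.17 CPM in Ctrl ganglia (log2 fold change -0.28 ± 0.12, edgeR adjusted p = 0.330).

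Sham_solvent and NPP_solvent ganglia were each set against the same 3 Ctrl_solvent libraries, so these results are not independent of one another or of the comparison with Ctrl. In Sham_solvent against Ctrl_solvent ganglia 8 of the 9 factors had negative log2 fold changes (51.6% of all genes), with a median of -0.41. By edgeR none was called at an adjusted p under 0.05 (0% of all genes), and 6 of the 9 had an unadjusted p under 0.05, all lower, beside 4.47% of all genes in that direction and 6.12% in both. These were Irf8 at -1.84 ± 0.52 (SE), Spi1 at -1.27 ± 0.45, Irf5 at -0.86 ± 0.26, Nfkb2 at -0.53 ± 0.25, Rela at -0.41 ± 0.14 and Nfkb1 at -0.37 ± 0.14. Their adjusted p values ran from 0.552 to 0.812 by edgeR with Benjamini-Hochberg adjustment. Rela, the main activating subunit of NF-kB, was the factor whose groups did not overlap (lower without overlap for 4.12% of all genes), with 22.8, 18.9 and 22.4 CPM in Sham_solvent against 32.0, 23.7 and 29.3 CPM in Ctrl_solvent ganglia. DESeq2 called Irf8 (adjusted p = 0.0426), beside 0.205% of all genes. Without Ctrl_solvent replicate 2, edgeR called Irf8 at -2.25 (adjusted p = 0.0253) and Irf5 at -1.15 (adjusted p = 0.0135), and with that replicate as the lone Ctrl_solvent library the 6 lower factors were nearer 0, Irf8 at -0.32, Nfkb1 at -0.21, Spi1 at -0.17, Rela at -0.13, Nfkb2 at -0.050 and Irf5 at -0.019. In that setting Relb turned to 0.23 and Cebpd to 1.04.

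NPP_solvent against Ctrl_solvent ganglia gave negative log2 fold changes for all 9 factors (51.3% of all genes), from -1.84 to -0.09 with a median of -0.53. Again edgeR called none at an adjusted p under 0.05 (0% of all genes). Of the 9, 4 had an unadjusted p under 0.05, beside 4.01% of all genes in that direction and 5.50% in both, namely Irf8 at -1.84 ± 0.53, Spi1 at -1.19 ± 0.45, Irf5 at -0.70 ± 0.26 and Nfkb2 at -0.53 ± 0.25. The groups overlapped for all 9 factors, whereas 7.56% of all genes did not overlap. DESeq2 called Irf8 (adjusted p = 0.0427), beside 0.235% of all genes. Without Ctrl_solvent replicate 2, edgeR called Irf8 at -2.25 (adjusted p = 0.0297) and Irf5 at -0.99 (adjusted p = 0.0344). With it alone, 5 of the 9 factors turned positive, Cebpd at 1.00, Relb at 0.33, Irf5 at 0.13, Nfkb1 at 0.067 and Rela at 0.016, while Irf8 was at -0.32, Cebpb at -0.17, Spi1 at -0.096 and Nfkb2 at -0.062.

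Among neighbouring pathway genes, Cd14, the co-receptor of Toll-like receptor 4, had the pattern of the myeloid factors. It had 2.39, 2.01 and 1.98 CPM in NPP_solvent and 4.31, 2.14 and 2.47 CPM in Sham_solvent ganglia, against 11.5, 3.17 and 14.0 CPM in Ctrl_solvent ganglia. Its log2 fold change was -2.16 ± 0.42 in NPP_solvent over Ctrl_solvent (edgeR adjusted p = 0.509) and -1.69 ± 0.41 in Sham_solvent over Ctrl_solvent (edgeR adjusted p = 0.459). Ccl5, a chemokine and NF-kB target, had 1.30, 0.903 and 0.642 CPM in Sham_solvent against 11.0, 1.30 and 15.4 CPM in Ctrl_solvent ganglia, so that Ctrl_solvent replicate 2 lay at the top of the Sham_solvent range. Ncf1, a subunit of the phagocyte NADPH oxidase, averaged 11.7 ± 1.09 CPM in NPP_solvent and 22.7 ± 6.67 CPM in Ctrl_solvent ganglia (SD, n = 3 each), without overlap. On the whole lists, PU.1 and IRF8 linked genes were lower in 20 of 20 in both NPP_solvent and Sham_solvent, at an unadjusted p under 0.05 for 12 of them in NPP_solvent (4.01% of all genes in that direction) and 14 in Sham_solvent (4.47% of all genes). Negative values were found for 51.3% of all genes in NPP_solvent and 51.6% in Sham_solvent. NF-kB targets were lower in 18 of 18 in NPP_solvent and in 16 of 18 in Sham_solvent. The target list summed to 653, 262 and 634 CPM in Ctrl_solvent ganglia. Ctrl_solvent replicate 2 was thus below every NPP_solvent library (264 to 346 CPM) and every Sham_solvent library (272 to 292 CPM). The PU.1 and IRF8 linked genes summed to 1357, 392 and 1423 CPM in Ctrl_solvent ganglia. There Ctrl_solvent replicate 2 lay within the range of NPP_solvent (276 to 830 CPM) and of Sham_solvent (339 to 881 CPM). At an unadjusted p under 0.05, the genes of the NF-kB, C/EBP, IRF and myeloid lists that were higher than in Ctrl_solvent were Cebpz in NPP_solvent, at 46.6 ± 2.15 CPM against 39.4 ± 4.3 CPM in Ctrl_solvent, and Irf3 in Sham_solvent, at 43.1 ± 4.82 CPM against 35.5 ± 2.63 CPM in Ctrl_solvent.

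The pain model was set against the sham state under the same treatment. In NPP_solvent against Sham_solvent ganglia 6 of the 9 factors were higher in value (51.3% of all genes) and 3 lower, with a median log2 fold change of 0.09 beside 0.01 over all genes, and the values ran from -0.59 to 0.28. By edgeR 0 of the 9 passed an adjusted p of 0.05 (0% of all genes) and 0 an unadjusted p of 0.05 (5.67% of all genes), and DESeq2 called 0 (0%). All 9 factors overlapped between the groups, whereas 8.11% of all genes did not. Nfkb1, the DNA-binding partner of RelA, came nearest, with 28.5, 24.0 and 26.4 CPM in NPP_solvent against 17.6, 26.2 and 20.8 CPM in Sham_solvent ganglia, a log2 fold change of 0.28 ± 0.14 (edgeR adjusted p = 0.755). In NPP_herb against Sham_herb ganglia 7 of the 9 were higher in value (49.1% of all genes), from -0.06 to 0.50 with a median of 0.10. None passed the edgeR test adjusted (0% of all genes) or unadjusted (1.40% of all genes), and DESeq2 called 0 of the 9 (0.0117% of all genes). Pooled over both treatments, the NPP over Sham values ran from -0.05 to 0.20, and 0 of the 9 passed by edgeR, adjusted (0%) or unadjusted (2.53% of all genes), or by DESeq2. A difference between the NPP and Sham states was thus not detectable in any of these 9 genes at this depth and number of libraries. Of the pathway genes, Traf6 was higher at an unadjusted p under 0.05 in NPP_solvent, at 18.6 ± 0.916 CPM against 15.4 ± 1.92 CPM in Sham_solvent ganglia (SD, n = 3 each; edgeR adjusted p = 0.755). Klf4 was higher in NPP_herb, at 9.59 ± 3.26 CPM against 5.97 ± 0.723 CPM in Sham_herb ganglia (edgeR adjusted p = 1.00).

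Treatment was set against solvent within each state. In NPP_herb against NPP_solvent ganglia 8 of the 9 factors were lower in value (52.3% of all genes), but the values lay between -0.59 and 0.01 with a median of -0.10, beside -0.01 over all genes. With edgeR 0 of the 9 passed an adjusted p of 0.05 (0% of all genes) or an unadjusted p of 0.05 (1.87% of all genes), and DESeq2 called 0 of the 9 (0.00587% of all genes). All 9 overlapped between these groups, whereas 5.30% of all genes did not. The largest difference was in Cebpd, an acute-phase factor induced by glucocorticoids and cytokines, with 12.0, 14.5 and 8.08 CPM in NPP_herb against 24.7, 18.1 and 8.81 CPM in NPP_solvent ganglia. NPP_solvent replicate 3 lay inside the NPP_herb range. Irf7 and Irf9, which carry the interferon response, were lower in NPP_herb than in NPP_solvent ganglia at an unadjusted p under 0.05. Irf7 had 10.8, 9.98 and 12.3 CPM in NPP_herb against 126, 161 and 8.07 CPM in NPP_solvent ganglia, so that NPP_solvent replicate 3 was below the NPP_herb libraries (log2 fold change -3.15 ± 1.31, edgeR adjusted p = 1.00). Irf9 averaged 29.3 ± 3.97 CPM in NPP_herb and 61.3 ± 29.8 CPM in NPP_solvent ganglia (SD, n = 3 each). The lowest NPP_solvent library had 27.0 CPM of Irf9, inside the NPP_herb range of 26.1 to 33.8 CPM. Irf8, although known to be inducible by interferon, had 4.78, 4.85 and 3.45 CPM in NPP_herb against 6.47, 5.69 and 2.61 CPM in NPP_solvent ganglia, with the highest and the lowest of these 6 libraries both in NPP_solvent. Klf4, a monocyte factor also present in vessels, was higher, at 9.59 ± 3.26 CPM in NPP_herb and 6.58 ± 0.784 CPM in NPP_solvent ganglia (SD, n = 3 each; log2 fold change 0.54 ± 0.23, edgeR adjusted p = 1.00).

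Cebpb, the acute-phase factor of macrophages and liver, was the member that differed most between herb and solvent in sham ganglia. It had 3.87, 2.85 and 2.65 CPM in Sham_herb against 9.63, 5.01 and 6.75 CPM in Sham_solvent ganglia, and the groups did not overlap (lower without overlap for 6.06% of all genes). The log2 fold change was -1.18 ± 0.33 (edgeR adjusted p = 0.491), and DESeq2 gave an adjusted p of 0.204. It was the 1 of 9 factors with an unadjusted p under 0.05, beside 5.49% of all genes in that direction and 9.89% in both, and no gene passed the adjusted threshold (0%). Markers of blood cells were lower in value in the same comparison. The neutrophil markers tested were lower in 10 of 10 at a median of -0.96, with summed levels of 32.9, 101 and 55.5 CPM in Sham_herb and 93.8, 104 and 161 CPM in Sham_solvent ganglia. Red blood cell markers were lower in 8 of 8 at a median of -2.60, with sums of 35.7, 66.9 and 46.9 CPM in Sham_herb and 120, 26.5 and 803 CPM in Sham_solvent ganglia. None of either list reached an unadjusted p under 0.05, the sums overlapped between the groups, and no marker was at 0 throughout a group. Fibroblast markers were lower too, in 6 of 6 at a median of -0.36, with 1 at an unadjusted p under 0.05. Their sums were 1249, 1472 and 1319 CPM in Sham_herb and 1921, 1639 and 1809 CPM in Sham_solvent ganglia, without overlap. In the NPP arm Cebpb had 3.98, 6.41 and 3.0 CPM in NPP_herb against 4.26, 6.73 and 3.18 CPM in NPP_solvent ganglia, nearly the same set of values. The difference between the arms was tested as an interaction and came to 1.09 ± 0.46 (NPP minus Sham; unadjusted p = 0.0299 and adjusted p = 0.920 by edgeR across all genes), 1 of the 9 factors beside 1.89% of all genes in that direction and 3.40% in both, with 0 adjusted calls (0%) and 0 of the 9 called by DESeq2 (0.0176% of all genes). Within the NPP arm the neutrophil markers tested were higher with herb in 10 of 10 at a median of 1.07. Their sums were 71.0, 91.3 and 124 CPM in NPP_herb and 45.6, 51.1 and 51.1 CPM in NPP_solvent ganglia, without overlap. Red blood cell markers were higher there in 8 of 8 at a median of 2.27. Each list had 1 marker at an unadjusted p under 0.05, beside 1.87% of all genes in both directions. In the interaction the neutrophil markers were higher in 10 of 10 at a median of 2.01 and the red blood cell markers in 8 of 8 at a median of 4.96, with 1 and 4 at an unadjusted p under 0.05. The part of blood cells or fibroblasts in the Cebpb difference was not tested. Pooled over both arms, herb over solvent gave -0.64 ± 0.23 for Cebpb (edgeR adjusted p = 0.782), the 1 of 9 with an unadjusted p under 0.05 beside 2.88% of all genes in that direction and 5.13% in both (adjusted calls 0%, DESeq2 0 of the 9 and 0.0117% of all genes). In the same pooled comparison Traf6 and Tab2, both below Toll-like receptors, were higher at an unadjusted p under 0.05, and Ddit3 and the inhibitor gene Nfkbib lower. Nfkbib averaged 13.4 ± 1.36 CPM with herb and 16.7 ± 3.86 CPM with solvent (SD, n = 6 each; log2 fold change -0.31 ± 0.13, edgeR adjusted p = 0.782).

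Cebpb also varied with general properties of the libraries. Over the 18 libraries its log2 CPM correlated at r = 0.86 (rho = 0.82) with the share of counted reads on ribosomal protein genes and at r = -0.86 (rho = -0.87) with the slope of expression on gene length, both given as descriptions. Ribosomal protein genes took 1.87%, 2.04% and 1.88% of the reads in Sham_herb and 3.33%, 1.79% and 2.54% in Sham_solvent ganglia. With the length slope as a covariate, an alternative added after the data were seen, the log2 fold change of Cebpb was -0.52 in Sham_herb over Sham_solvent, 0.47 in the interaction and -0.29 for herb over solvent pooled. The part of these library properties in the difference was not tested further. Nfkb1 ran the other way, at r = 0.67 with the length slope, and the remaining 7 factors lay between -0.57 and -0.02. With the ribosomal protein share r was 0.66 for Cebpd, 0.66 for Relb, 0.56 for Nfkb2 and -0.54 for Nfkb1. It was 0.46 for Spi1, 0.40 for Irf5, 0.28 for Rela and 0.21 for Irf8.

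**Figure D4:**
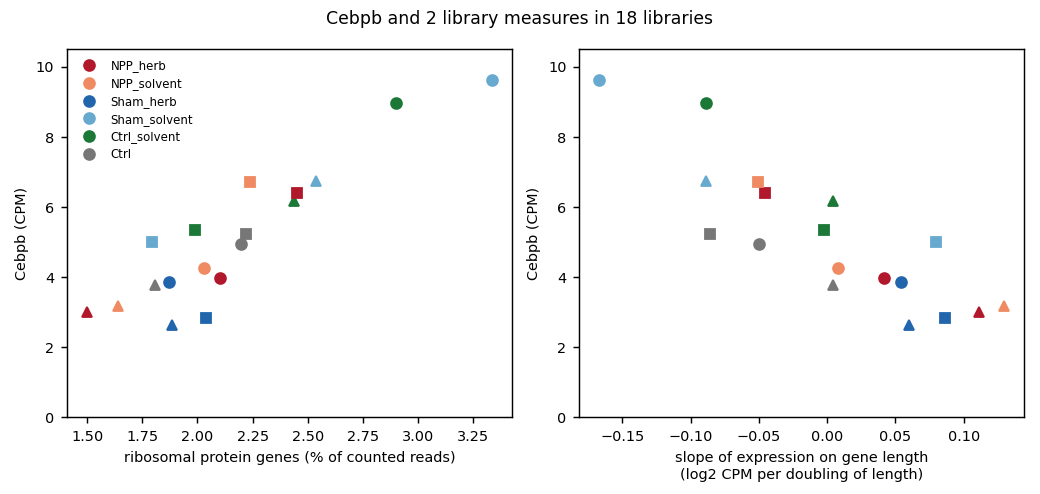
Level of Cebpb (CPM, axis from 0) against the share of counted reads on ribosomal protein genes (left) and against the slope of expression on gene length (right, log2 CPM per doubling of length) in 18 libraries, coloured by group. Circles, squares and triangles are replicates 1, 2 and 3. Sham_solvent replicate 1, with 9.63 CPM, 3.33% ribosomal protein reads and a slope of -0.17, sits at the end of both trends, and the 3 Sham_herb libraries lie at the low end of Cebpb.

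The sister factor Cebpd was lower in value with herb in both arms. It had 6.10, 11.5 and 10.9 CPM in Sham_herb against 25.3, 16.2 and 11.0 CPM in Sham_solvent ganglia, and herb over solvent pooled over both arms came to -0.73 ± 0.37 (unadjusted p = 0.0681, adjusted p = 0.782 by edgeR across all genes). The groups overlapped in each arm. Other C/EBP genes picked by the rule included Ddit3, the stress factor that inhibits C/EBP proteins, at 31.9 ± 1.34 CPM in Sham_herb and 44.7 ± 10.4 CPM in Sham_solvent ganglia (SD, n = 3 each; log2 fold change -0.48 ± 0.19, edgeR adjusted p = 0.491). Runx1, which opens myeloid genes together with PU.1 but is also present in sensory neurons, was higher, at 34.9, 38.1 and 37.3 CPM in Sham_herb against 26.7, 28.1 and 27.4 CPM in Sham_solvent ganglia, without overlap (log2 fold change 0.43 ± 0.11, edgeR adjusted p = 0.491). Traf6, the ubiquitin ligase below Toll-like and interleukin-1 receptors, was higher too, at 19.7 ± 0.829 CPM in Sham_herb and 15.4 ± 1.92 CPM in Sham_solvent ganglia (log2 fold change 0.35 ± 0.12, edgeR adjusted p = 0.491). The same Sham_solvent libraries enter its results in NPP_solvent over Sham_solvent and in herb over solvent pooled, so the Traf6 results are not independent. Ltb, a ligand of the alternative NF-kB arm, was lower, at 3.37 ± 0.294 CPM in Sham_herb and 5.49 ± 1.74 CPM in Sham_solvent ganglia (log2 fold change -0.70 ± 0.27, edgeR adjusted p = 0.491). PU.1 and IRF8 linked genes were lower in value in 19 of 20 in Sham_herb, with 0 at an unadjusted p under 0.05, and macrophage markers in 17 of 18, with 1. Over all genes 5.49% were lower at an unadjusted p under 0.05, so the counts at that threshold are near the background. Most genes of both lists were nevertheless lower in direction. The median log2 fold change was -0.41 for the linked genes and -0.51 for the macrophage markers, beside 0.005 over all genes tested.

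The 4 NF-kB subunits kept a narrower range. Rela had 25.0, 21.2 and 25.5 CPM in NPP_herb, 21.6, 27.6 and 22.1 CPM in NPP_solvent, 23.4, 19.5 and 23.6 CPM in Sham_herb and 27.6, 29.0 and 24.7 CPM in Ctrl ganglia. Nfkb1 had 26.0, 22.0 and 30 CPM in NPP_herb, 24.3, 28.0 and 27.2 CPM in Sham_herb, 30.6, 25.3 and 28.1 CPM in Ctrl_solvent and 23.5, 21.6 and 25.7 CPM in Ctrl ganglia. Both canonical genes thus overlapped between most groups, and the lowest Nfkb1 value was that of Sham_solvent replicate 1. Relb, the activating subunit of the alternative arm, had 6.77, 6.24 and 5.22 CPM in NPP_herb, 7.11, 6.83 and 5.57 CPM in NPP_solvent, 4.68, 5.43 and 4.91 CPM in Sham_herb and 6.75, 5.11 and 6.18 CPM in Sham_solvent ganglia. In the controls it had 9.58, 5.20 and 8.31 CPM in Ctrl_solvent and 6.70, 7.76 and 4.28 CPM in Ctrl ganglia, with Ctrl_solvent replicates 1 and 3 again on top. Among the inhibitors, Nfkbie, which encodes IkB epsilon, had 11.3, 9.85 and 10.8 CPM in NPP_solvent against 6.38, 8.13 and 8.75 CPM in Sham_solvent ganglia, without overlap (log2 fold change 0.46 ± 0.18, edgeR adjusted p = 0.755).

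Nfkb2, the partner of RelB, had 8.38, 8.75 and 6.68 CPM in NPP_herb, 10.1, 7.32 and 7.04 CPM in NPP_solvent, 6.53, 7.85 and 7.91 CPM in Sham_herb and 9.83, 7.96 and 6.69 CPM in Sham_solvent ganglia. In Ctrl_solvent ganglia it had 12.7, 8.55 and 14.1 CPM, against 10.4, 10.6 and 5.32 CPM in Ctrl ganglia, so that replicates 1 and 3 of Ctrl_solvent were the highest of the 18. Nfkb2 is known as a target of NF-kB itself, and Irf8 as a target of interferon-gamma. RefSeq promoter sequences (assembly GRCr8, which is not the mRatBN7.2 build named for the counts) were at hand for 6 of the 9 factors, Nfkb1, Nfkb2, Rela, Cebpb, Irf5 and Irf8. The 250 bases before the annotated start were searched on both strands for the kappa B consensus, for the interferon-gamma activated site TTCNNNGAA, for the interferon-stimulated response element (GAAA, any pair of bases, GAAA) and for the C/EBP motif TTNNGNAA. The Nfkb2 window (chr1:255108124-255108373, plus strand) and the Irf8 window (chr19:65699034-65699283, plus strand) are shown because they hold matches to the motif of the pathway each gene answers to, and capitals mark these matches.
Nfkb2: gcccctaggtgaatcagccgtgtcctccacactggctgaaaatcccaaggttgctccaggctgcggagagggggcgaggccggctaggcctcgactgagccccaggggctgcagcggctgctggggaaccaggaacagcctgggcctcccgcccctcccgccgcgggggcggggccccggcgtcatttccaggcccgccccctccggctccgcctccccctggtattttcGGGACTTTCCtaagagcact
Irf8: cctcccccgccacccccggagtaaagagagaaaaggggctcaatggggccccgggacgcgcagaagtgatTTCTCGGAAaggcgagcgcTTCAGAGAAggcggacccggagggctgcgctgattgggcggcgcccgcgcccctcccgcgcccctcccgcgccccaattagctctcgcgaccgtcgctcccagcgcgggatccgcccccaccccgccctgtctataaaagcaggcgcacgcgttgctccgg
The Nfkb2 match to the kappa B consensus begins 20 bases before the start, and 6.33% of 33469 promoter windows of the same length hold such a match. A match to the C/EBP motif, which 37.2% of windows hold, overlaps it. The Irf8 window holds TTCTCGGAA beginning 180 bases and TTCAGAGAA beginning 161 bases before the start, a motif that 7.67% of windows hold. None of the 6 windows matched the interferon-stimulated response element (3.41% of windows). The Nfkb1, Rela, Cebpb and Irf5 windows matched none of the motifs searched. A match describes the letters and does not show binding.

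Pairs of factors differed in how closely their levels ran together over the libraries. In all, 45 relations were computed, 36 between pairs of the 9 factors and 9 between a factor and the summed macrophage markers, on log2 CPM over the 18 libraries of 6 groups, with permutation p values adjusted over the 45 (BH). Of the 36 pairs 33 were positive, and 11 had a BH-adjusted permutation p under 0.05 by both Pearson and Spearman correlation. The pair of the alternative arm, Nfkb2 and Relb, had r = 0.85 and rho = 0.77 (BH-adjusted permutation p = 0.0003 and 0.003), and r = 0.76 without the 2 libraries farthest from the median of Nfkb2. Nfkb2 with Cebpd had r = 0.82 and rho = 0.81 (BH-adjusted permutation p = 0.0003 and 0.0024), and r = 0.78 without the 2 farthest libraries. Relb with Spi1 had r = 0.81 and rho = 0.75 (BH-adjusted permutation p = 0.0003 and 0.003). Its r was 0.70 without the 2 libraries farthest from the median of Relb, Ctrl_solvent replicate 1 and Ctrl replicate 3. Ctrl_solvent replicate 3, the highest library in Spi1, stayed in. Nfkb2 with Spi1 had r = 0.77, and 0.52 without Ctrl_solvent replicates 1 and 3. The canonical pair, Nfkb1 and Rela, had r = 0.14 and rho = 0.10 (BH-adjusted permutation p = 0.63 and 0.79), and r = 0.026 without the 2 farthest libraries. For relations measured from the median of Spi1, Irf5 or Irf8 the 2 farthest libraries were Ctrl_solvent replicates 1 and 3, and these relations rest in part on them. Irf5 with Irf8 had r = 0.88 and rho = 0.74, and r = 0.61 without these libraries. Spi1 with Irf8 had r = 0.79 and rho = 0.68, and r = 0.46 without them. Against the macrophage markers, r was 0.87 for Spi1, 0.85 for Irf8 and 0.83 for Irf5, and 0.68, 0.60 and 0.49 without them. Against the same markers r was 0.74 for Relb, 0.72 for Nfkb2, 0.71 for Cebpd, 0.54 for Cebpb, 0.31 for Nfkb1 and 0.31 for Rela. In the same order it was 0.56, 0.42, 0.61, 0.62, 0.42 and 0.23 without the 2 libraries farthest from each factor's own median. Nfkb1 stood aside from the other 8, with r from -0.50 (Cebpb) to 0.53 (Irf8). Relations between genes of one library share its depth, its cell content, its ribosomal protein share and its length slope.

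**Figure D5:**
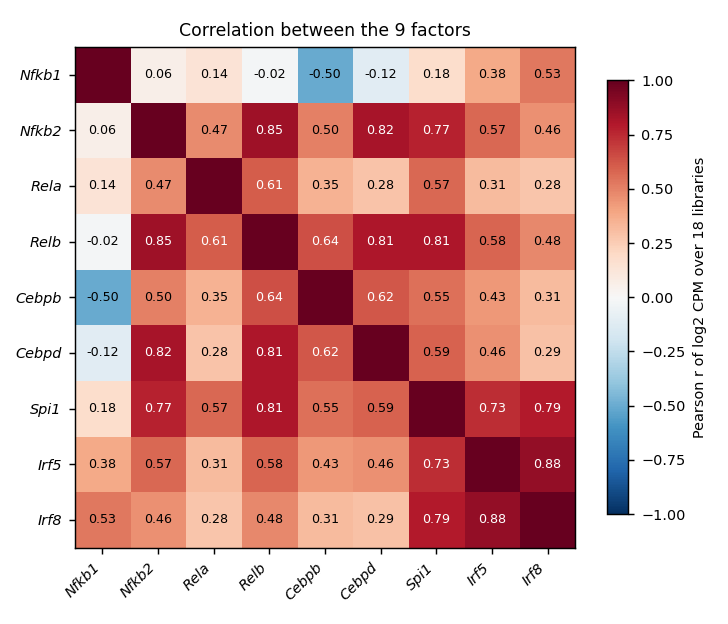
Pearson r between the log2 CPM of each pair of the 9 factors over 18 libraries. Nfkb2, Relb and Cebpd have 0.81 to 0.85 with each other. Spi1 has 0.81 with Relb, 0.79 with Irf8, 0.77 with Nfkb2, 0.73 with Irf5 and 0.59 with Cebpd. Irf5 and Irf8 reach 0.88 with each other, and Nfkb1 has values from -0.50 to 0.53 with the rest.

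The genes most like each factor, by Pearson r of log2 CPM over the 18 libraries among 13236 genes compared, differed by member. Irf8 was most like Mnda (r = 0.94), Klra2 (0.94) and C3 (0.92), where Mnda is a myeloid nuclear antigen gene and C3 the central complement gene. Irf5 was most like the chemokine gene Cxcl13 (0.93), Irf1 (0.91) and C3 (0.91). Spi1 was most like Ptpn6 (0.95), Lsp1 (0.94) and Sh3tc1 (0.94), the first of which encodes the leukocyte phosphatase SHP-1. Relb was most like Tspo (0.92), Mfng (0.89) and Myl12a (0.88), and Nfkb2 like Zfp36 (0.89), Il17rc (0.87) and Col16a1 (0.87). Cebpd shared Zfp36 (0.89), the gene of an inducible RNA-decay factor, and was also like Nupr1 (0.89) and Mt2A (0.88). Cebpb was most like Eif4ebp1 (0.91), the ribosomal protein gene Rps2 (0.90) and Rnaset2 (0.89). Rela was like Septin1 (0.84) and Kpna2 (0.83), with the lowest leading value among the 9, and Nfkb1 like Slc39a9 (0.91), Pde4b (0.90) and Zmiz1 (0.89). Without Ctrl_solvent replicates 1 and 3, r for Irf5 was 0.83 with Cxcl13, 0.56 with Irf1 and 0.67 with C3. For Irf8 it was 0.82 with Mnda, 0.84 with Klra2 and 0.77 with C3, and for Spi1 0.84 to 0.88. For the other 6 factors r lay between 0.75 and 0.91 without the 2 libraries farthest from the median of each factor.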

How the data were processed

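Rat dorsal root ganglion mRNA was sequenced in 18 libraries, 3 for each of 6 groups taken from the labels. Per the labels' protocols, DNase-treated total RNA was captured on mRNA beads, made into libraries with a KAPA stranded kit and read from both ends. The submitters' processing notes name HISAT2, DESeq2 and the build mRatBN7.2. The sources used here give no counter, strand setting or annotation, and reads from overlapping or antisense genes may therefore be mixed. The deposited counts are raw whole reads per gene for 25678 genes, with 18170925 to 50289652 counted reads per library. The FPKM values, deposited for 25557 of these genes, were scaled to gene length and depth by the authors. Gene lengths implied by both tables varied between libraries by 0.349% (median coefficient of variation, 6097 genes). Chromosomes come from the deposited tables, which give no start or end.

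Counts were filtered with filterByExpr (17043 genes kept), scaled by TMM (0.946 to 1.04) and fitted with edgeR 4.0.16 in R 4.3.3, by the quasi-likelihood F test with 1 coefficient per group over all 18 libraries (12 residual degrees of freedom). P-values were adjusted by Benjamini-Hochberg across the 17043 genes of a comparison, with a threshold of 0.05, and SE is the log2 fold change divided by the square root of F. CPM are TMM-scaled. Correlations used log2 CPM (prior count 2) and 100000 permutations. The length slope is the regression of a library's log2 expression, relative to the mean of all libraries, on log2 gene length over 12782 genes, and ribosomal protein reads are those on 89 genes. DESeq2 1.42.0, other scaling, no filter, a replicate block, fits of the compared groups alone and the omission of each library were alternatives. The fit was tested on simulated counts. No pair of replicates agreed within sampling noise (smallest chi-square per degree of freedom 12.8).

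Named genes were the 9 members and, from lists of NF-kB, C/EBP, IRF and myeloid genes, those with adjusted p under 0.05 and up to 2 per direction with the smallest unadjusted p under 0.05 in each comparison. For each member the 3 genes most like it were named, among those averaging at least 1 CPM, except 1 that is not reported here. The members and lists were chosen with earlier results of these data known.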

Additional observations from a re-analysis of the deposited data

How the results depend on the processing

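For the 9 factors, 21 changes with an unadjusted p under 0.1 were refitted under 284 alternatives, of which 282 kept the sign and 10 brought an adjusted p under 0.05. The 2 reversals were in NPP_solvent over Ctrl_solvent with Ctrl_solvent replicate 2 as the lone library of its group, where Rela came to 0.016 and Irf5 to 0.13. That setting and the gene length covariate were added after the data were seen. The remaining 69 changes had 123 reversals among 985 alternatives, in 47 of them. Genes called over the whole table, 0 by edgeR in all 11 comparisons, depended on the tool and the libraries. DESeq2 called 466 for Ctrl_solvent over Ctrl, 470 among the 6 groups, 40 for NPP_solvent over Ctrl_solvent, 35 for Sham_solvent over Ctrl_solvent, 3 for the interaction, 2 for NPP_herb over Sham_herb, 2 for herb over solvent pooled and 1 for NPP_herb over NPP_solvent. Leaving out 1 library gave 0 to 734 for Ctrl_solvent over Ctrl, 0 to 319 among the 6 groups, 0 to 252 for Sham_solvent and 0 to 188 for NPP_solvent over Ctrl_solvent, each highest without Ctrl_solvent replicate 2. It gave 0 to 2 for NPP_herb over Sham_herb and 0 to 1 for the interaction. For Ctrl_solvent over Ctrl, 1 gene was called with no filter and 1 with the length covariate, and 1 among the 6 groups with the lone Ctrl_solvent library. The cause was not tested.

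Replicate numbers did not pair the libraries. Deviations from group means of same-numbered libraries correlated at a median r of 0.00821 (-0.282 to 0.231), and 4 of 18 libraries correlated best with their own number. With the replicate block 0 genes were called in every comparison, and it changed no call.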
